A study of Mus musculus with 6 samples.

Results

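ISG15 is a small ubiquitin-like protein that cells make in response to interferon and attach to other proteins through its own enzyme cascade. The ISG15 conjugation system was taken here as 5 genes, namely Isg15, Uba7, Ube2l6, Herc6 and Usp18, in mouse embryonic fibroblasts (MEFs) with and without the mitochondrial inner-membrane protease YME1L. Loci of the deposited count table whose name holds one of these symbols were taken, which gave 5 loci of 51499. All 5 passed the filter on low counts and were among the 13867 loci tested. The transcripts of Isg15, Ube2l6, Herc6 and Usp18 were higher in all Yme1l-/- libraries than in all wild-type (WT) libraries, by 2.51-fold, 4.02-fold, 2.38-fold and 8.58-fold. The locus that holds Uba7, which the authors merged with neighbouring genes, was at 0.753 of its WT level.

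The 6 libraries were made from poly(A)-selected RNA of 3 independent cultures of WT and 3 of Yme1l-/- MEFs. Both genotypes were immortalized with SV40 large T antigen and derived from animals with loxP-flanked Yme1l alleles. WT cells carried both floxed alleles (genotype label Yme1l fl/fl), and in Yme1l-/- cells these had been deleted after transduction with Cre recombinase. The cells of both genotypes were expanded as individual clones, so effects of the genotype and of the clone cannot be told apart. The p-values measure the spread between cultures.

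In ISG15 conjugation, the activating enzyme UBA7 charges ISG15, the conjugating enzyme UBE2L6 takes it over and, in the mouse, the ligase HERC6 transfers it to target proteins. USP18 is the protease that removes ISG15 from them, and it also restrains signalling at the type I interferon receptor through IFNAR2 and STAT2. All 5 genes are known as interferon-stimulated genes, whose promoters often hold an interferon-stimulated response element (ISRE), to which the ISGF3 complex binds. STAT2 and IRF9 are subunits of that complex.

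The promoters are shown because interferon-responsive control is known to act through short motifs close to the start site. RefSeq (GRCm38.p6) had an entry for 4 of the 5 members, and Usp18 had none. The last 140 bases before the RefSeq start are given 5′ to 3′ on the strand of the gene, and capitals mark bases that belong to an ISRE core or to an IRF half-site. For Uba7 the RefSeq start lies 62 bases downstream of the first base of the gene in GENCODE (107975505), and only the 78 bases before that first base are shown.
Isg15, chr4:156200819-156200958, minus strand: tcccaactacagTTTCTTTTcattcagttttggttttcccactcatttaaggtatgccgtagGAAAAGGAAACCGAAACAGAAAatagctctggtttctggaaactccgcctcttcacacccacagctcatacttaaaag
Uba7, chr9:107975427-107975504, plus strand: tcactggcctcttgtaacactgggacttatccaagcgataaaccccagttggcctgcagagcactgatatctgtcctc
Ube2l6, chr2:84798688-84798827, plus strand: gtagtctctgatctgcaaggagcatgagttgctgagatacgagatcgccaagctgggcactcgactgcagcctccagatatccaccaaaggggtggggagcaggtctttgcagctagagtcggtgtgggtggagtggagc
Herc6, chr6:57580852-57580991, plus strand: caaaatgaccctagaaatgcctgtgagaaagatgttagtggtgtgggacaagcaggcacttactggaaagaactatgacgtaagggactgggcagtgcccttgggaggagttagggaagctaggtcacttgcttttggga

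Motifs of 3 kinds were searched on both strands over 250 bases before the start. The ISRE core, which is GAAA, 2 bases of any kind and GAAA (on the other strand TTTC, 2 bases and TTTC), was found in 2.98% of 32851 promoters, the IRF half-site AANNGAAA (TTTCNNTT), which lies within the ISRE core, in 21.3%, and the interferon-gamma motif GAS, TTCNNNGAA, in 7.02%. Isg15 held 3 overlapping ISRE cores, starting at -78, -72 and -66 relative to the start site, and a separate half-site on the other strand from -128 to -121. Uba7 held 1 half-site, on the other strand from -27 to -20 relative to the RefSeq start and thus within the gene as GENCODE places it, and no ISRE core. The windows of Ube2l6 and Herc6 matched neither motif, and no GAS match was found in any of the 4. A match describes letters only, and factor binding was not measured.

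Isg15 encodes the modifier itself. It lies on chromosome 4 (mm10, 156199424 to 156200818, minus strand) as a protein-coding gene with 1 annotated transcript. Fragment counts were 523, 614 and 465 in WT replicates 1 to 3 and 1303, 2119 and 2187 in Yme1l-/- replicates 1 to 3. These were scaled to CPM, which are counts per 1e6 of the library size after TMM scaling. CPM were 15.8, 18.8 and 14.2 in WT and 37.2, 42.0 and 42.9 in Yme1l-/-. Each Yme1l-/- library exceeded each WT library, and the means were 16.3 ± 2.29 and 40.7 ± 3.06 CPM (SD, n = 3 each). The log2 fold change of Isg15, Yme1l-/- over WT, was 1.33 ± 0.10 (SE). Its p, adjusted by Benjamini-Hochberg over the 13867 loci, was 4.58e-07 in the quasi-likelihood test of edgeR. A processed pseudogene that matched the Isg15 transcript over 482 bases at 95.2% identity had 0 counts in every library.

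Uba7 encodes the activating enzyme (E1) that charges ISG15. The gene lies on chromosome 9 (107975505 to 107984060, plus strand), but the authors' assembly merged it with Gm20661, Cdhr4, Gm20662 and Ip6k1, an inositol hexakisphosphate kinase gene, into a single locus from 107975505 to 108048782. Exons of Uba7 make up 37.7% and those of Ip6k1 36.5% of the 17770 annotated exonic bases on that strand, so the counts cannot be divided among the genes and no level of Uba7 alone is given. The merged locus had 3575, 3409 and 3580 fragments in WT and 2809, 4062 and 4153 in Yme1l-/-. This corresponded to 108.0, 104.1 and 109.6 CPM in WT and 80.3, 80.6 and 81.5 CPM in Yme1l-/-. Each Yme1l-/- library was below each WT library. The log2 fold change of the locus was -0.41 ± 0.04 (SE; edgeR adjusted p = 7.03e-06). The median log2 fold change of the 785 tested loci of chromosome 9 was -0.36. With the median of each chromosome removed, the value for the merged locus was -0.049 and the edgeR adjusted p was 0.345.

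Ube2l6 encodes the conjugating enzyme (E2). It lies on chromosome 2 (84798828 to 84810335, plus strand) with 4 annotated transcripts. Counts were 130, 141 and 159 in WT and 547, 894 and 978 in Yme1l-/-, or 3.93, 4.31 and 4.87 CPM against 15.6, 17.7 and 19.2 CPM. The libraries of the genotypes were far apart, with means of 4.37 ± 0.474 and 17.5 ± 1.79 CPM (SD, n = 3 each). The log2 fold change came to 2.01 ± 0.11 (SE; edgeR adjusted p = 3.88e-08). Parts of Ube2l6 transcripts matched transcripts of other genes over at least 250 bases at 90% identity or more, among them Smchd1, Ift46 and D10Wsu102e, and an exchange of fragments between them was not tested. How the authors counted fragments that map to several places is not given in the sources used here.

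Herc6 encodes the main ISG15 ligase (E3) of mouse cells. The gene lies on chromosome 6 (57581000 to 57664632, plus strand). The authors' coordinates for it start further upstream, at 57476697, but Ppm1k has the same interval, so the extent of the counted Herc6 locus is not known. The interval also spans 4930533I22Rik, Gm45193 and Gm27896, and whether their fragments were counted with Herc6 was not tested. Herc6 exons make up 76.0% of the annotated exonic bases on that strand within the interval. Counts were 466, 491 and 501 in WT and 1141, 1804 and 1895 in Yme1l-/-, or 14.1, 14.9978 and 15.3 CPM against 32.6, 35.8 and 37.2 CPM. All Yme1l-/- libraries were higher than all WT libraries, with means of 35.2 ± 2.35 and 14.8 ± 0.654 CPM (SD, n = 3 each). The log2 fold change came to 1.25 ± 0.07 (SE; edgeR adjusted p = 3.44e-08).

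Usp18, which encodes the deconjugating protease, had the highest fold change of the 5. It also lies on chromosome 6 (121245906 to 121270917, plus strand). Counts were 126, 165 and 107 in WT and 1078, 1801 and 1906 in Yme1l-/-, or 3.81, 5.04 and 3.28 CPM against 30.8, 35.7 and 37.4 CPM. The lowest Yme1l-/- library was well above the highest WT library, with means of 4.04 ± 0.905 and 34.6 ± 3.43 CPM (SD, n = 3 each). The log2 fold change came to 3.10 ± 0.14 (SE; edgeR adjusted p = 2.94e-08). Among all loci tested it ranked 233 from the top. Ube2l6 ranked 512, Isg15 890 and Herc6 938 in the same order.

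**Figure D1:**
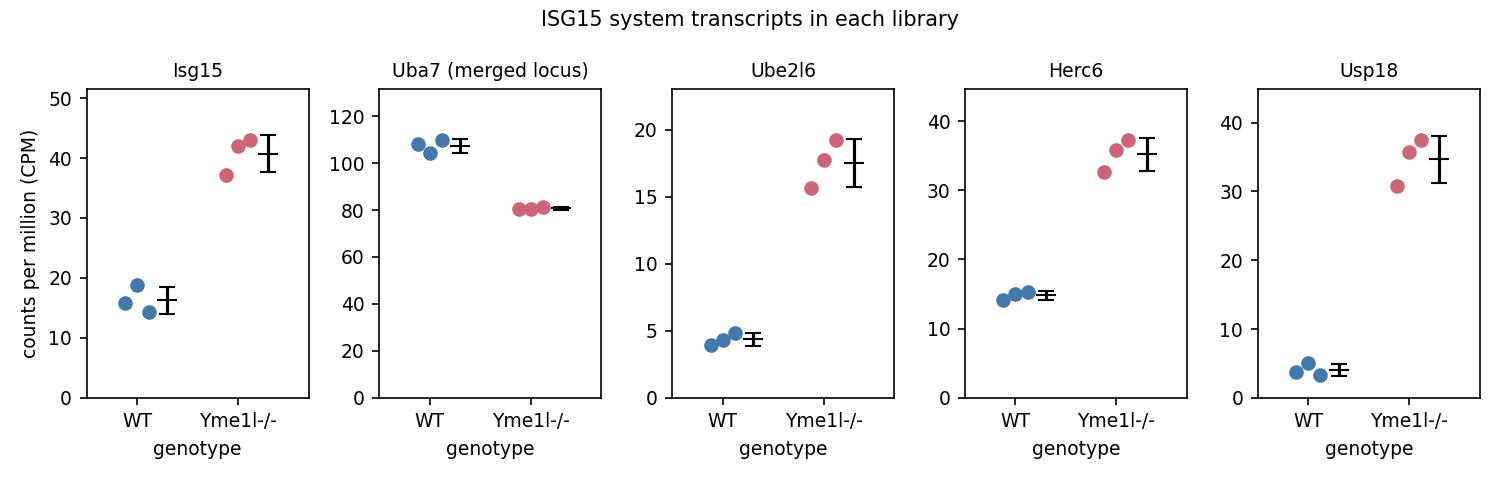
CPM (linear axis from 0, a scale of its own in each panel) of the 5 loci in each library, with the mean and SD of 3 cultures beside the points. The Yme1l-/- points lie above the WT points for Isg15, Ube2l6, Herc6 and Usp18, and below them for the merged locus that holds Uba7.

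Changes were widespread in these cells, which sets the measure for these counts. Of the loci tested, 33.6% were called higher (adjusted p under 0.05), 34.1% were called lower, and 67.7% were called in either direction. These shares hold without removal of chromosome medians. Shares of all loci with those medians removed are not given here, so counts under that setting have no such measure. Of the 5 members, 4 were called higher and 1 was called lower. Being called and at least 2-fold higher was less common, at 9.1% of loci, and the same 4 members met it, of which Herc6 was below 2-fold (log2 0.91) with chromosome medians removed. The libraries of the genotypes did not overlap for 71.9% of loci, with Yme1l-/- above for 35.9% and below for 36%, and did not overlap for any of the 5 members. The median log2 fold change over all loci tested was -0.0041, and over the members it was 1.33.

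The targeted gene, Yme1l1, went from 188.7 ± 5.16 to 39.1 ± 1.34 CPM (SD, n = 3 each) in the direction of the labels. Libraries held between 33180867 and 49351107 fragments. Of 9 fibroblast markers, 8 were tested, of which 1 was called higher and 6 lower, or 0 and 5 with chromosome medians removed. Their summed level lay between 10961 and 11519 CPM in WT libraries and between 6723 and 7206 CPM in Yme1l-/- libraries, and the fibroblast surface marker Thy1 had at most 6 fragments in a WT library and none in Yme1l-/-. None of 8 leukocyte markers passed the filter. Adgre1 and Cd3e were at 0 throughout, and the summed level was 0.276 to 0.305 CPM in WT and 0.853 to 1.02 CPM in Yme1l-/-. Of 5 epithelial markers 2 were tested and both were lower, with a sum of 32.9 to 34.9 CPM in WT, almost all from Krt18, and 0.334 to 0.686 CPM in Yme1l-/-. Of 4 endothelial markers only Kdr was tested and it was higher, with a sum of 0.888 to 1.44 CPM in WT and 1.67 to 2.00 CPM in Yme1l-/-. The part of these differences in the values of the ISG15 genes was not tested, and in bulk RNA fewer cells of a type and less RNA per cell cannot be told apart.

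Levels can be compared between genes only per transcript length, for which the authors' FPKM (fragments per kilobase of transcript, scaled for library size, 1 combined value per genotype and therefore without a spread) were used. In WT cells Isg15 was at 27.8 FPKM, Herc6 at 5.22, Ube2l6 at 3.25 and Usp18 at 2.51. In Yme1l-/- cells Isg15 was at 69.6 FPKM, Usp18 at 21.5, Ube2l6 at 12.8 and Herc6 at 12.4. Isg15 was thus the most abundant of the separately counted members in both genotypes, and Usp18 went from the lowest of these to the next after Isg15. The merged Uba7 locus had 28.6 and 24.3 FPKM.

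Whether the members changed by different amounts was examined through the log2 ratio of CPM of a pair of members within each library. The ratio itself depends on transcript length, so only its shift between genotypes is read. An exact permutation test of 3 against 3 libraries, two-sided, cannot go below p = 0.1, and 10 pairs were compared.

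The ratio of Usp18 to each of the others was higher in all Yme1l-/- libraries. Over Isg15 its log2 ratio went from -2.01 ± 0.11 in WT to -0.24 ± 0.04 in Yme1l-/- (SD, n = 3 each), a shift of 1.77. Over Ube2l6 the shift was 1.11, and over Herc6 it was 1.86. The libraries of the genotypes did not overlap for these ratios, with an exact p of 0.1, the smallest possible, and 0.111 after Benjamini-Hochberg adjustment over the pairs.

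The ratio of Ube2l6 to Isg15 was -1.88 ± 0.30 in WT and -1.22 ± 0.05 in Yme1l-/- (SD, n = 3 each), a shift of 0.66, and that of Herc6 to Ube2l6 shifted by -0.75, also without overlap and with an exact p of 0.1 each. Herc6 and Isg15, the ligase and the modifier, differed least. Their log2 ratio was -0.17, -0.32 and 0.11 in WT and -0.19, -0.23 and -0.21 in Yme1l-/-. The Yme1l-/- values lay within the WT range, and the shift of -0.083 had an exact permutation p of 0.7. Without WT replicate 3 that shift was 0.034. The ratios of Isg15 and the other enzymes to the merged Uba7 locus were higher by 1.65 (Herc6) to 3.51 (Usp18), without overlap between the genotypes and with the same exact p of 0.1.

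**Figure D2:**
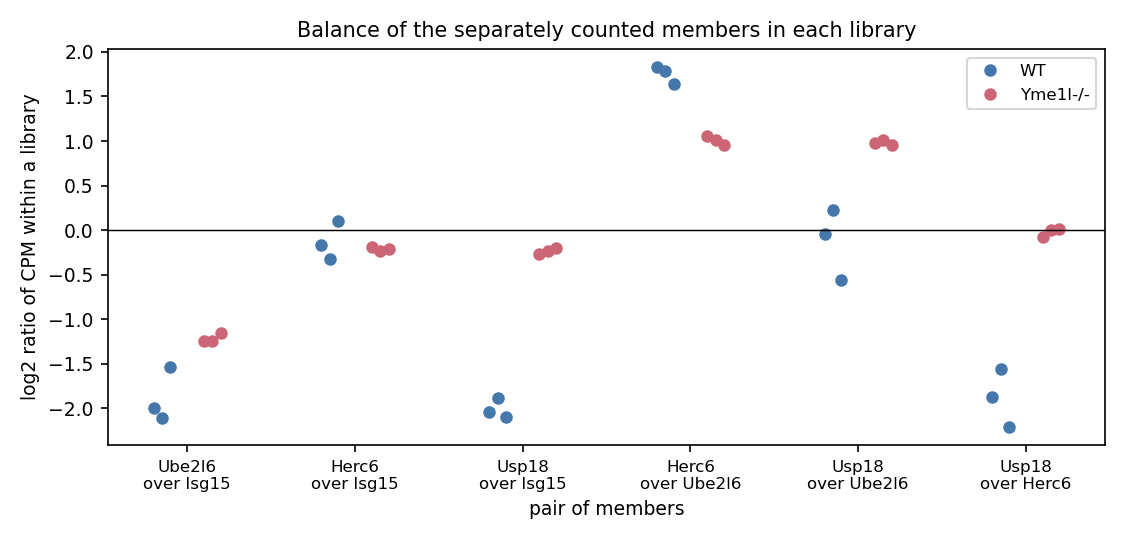
Log2 ratio of CPM for the 6 pairs of separately counted members, 1 point per library. The 3 Yme1l-/- points lie apart from the WT points for 5 pairs and within the WT range for Herc6 over Isg15, and the 3 Usp18 ratios are higher in Yme1l-/-.

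Each enzyme belongs to a gene family whose other members serve ubiquitin or other modifiers. Among 32 tested loci with a Ube2 symbol (conjugating enzymes), 5 were called higher and 17 lower, with a median log2 fold change of -0.15. Ube2l6 was the only one called with at least 2-fold higher expression, and the next were Ube2h at 0.26 ± 0.04 and Ube2o at 0.25 ± 0.04 (SE), which with chromosome medians removed were at -0.078 and -0.10 and not called (edgeR adjusted p of 0.151 and 0.0665). The lowest were Ube2e2, Ube2c and Ube2d2a, at -1.08 ± 0.06, -0.83 ± 0.05 and -0.65 ± 0.14. By the authors' FPKM, Ube2l6 ranked 30 of 30 such genes in WT and 26 of 30 in Yme1l-/-.

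Among 48 tested loci of the Usp group (ubiquitin-specific proteases by symbol, with Cyld), 9 were called higher and 28 lower, with a median of -0.25. Usp18 had the highest value, and the next was Usp25 at 0.93 ± 0.06 (SE), from 49.3 to 93.6 CPM. Usp18 ranked 41 of 47 in the authors' FPKM in WT and 19 of 47 in Yme1l-/-. The lowest had few or no fragments in Yme1l-/- cells. Usp51 had 26, 36 and 38 fragments in WT and 0 in all 3 Yme1l-/- libraries, and Usp13 had 36, 40 and 22 in WT and 0, 0 and 1 in Yme1l-/-. Usp43 was at 0.894 CPM in WT and 0.221 CPM in Yme1l-/- (log2 fold change -2.01 ± 0.31).

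Of 5 Herc genes, only Herc6 was called higher. Herc1 and Herc3 were called lower, at -0.63 ± 0.12 and -0.42 ± 0.09 (SE), but with chromosome medians removed Herc1 was at -0.27 and not called (edgeR adjusted p = 0.0782) and Herc3 was at -0.76. Herc2 and Herc4 had values of -0.02 ± 0.11 and -0.03 ± 0.05 and were not called, although Herc4 was called lower, at -0.32, with chromosome medians removed. By the authors' FPKM, Herc6 ranked 5 of 5 in WT and 2 of 5 in Yme1l-/-. Of 7 loci with a Uba symbol, 1 was called higher and 6 lower, with a median of -0.39, close to the -0.41 of the merged Uba7 locus. After removal of chromosome medians 0 were called higher and 4 lower, with a median of -0.17, and the merged Uba7 locus was at -0.049.

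**Figure D3:**
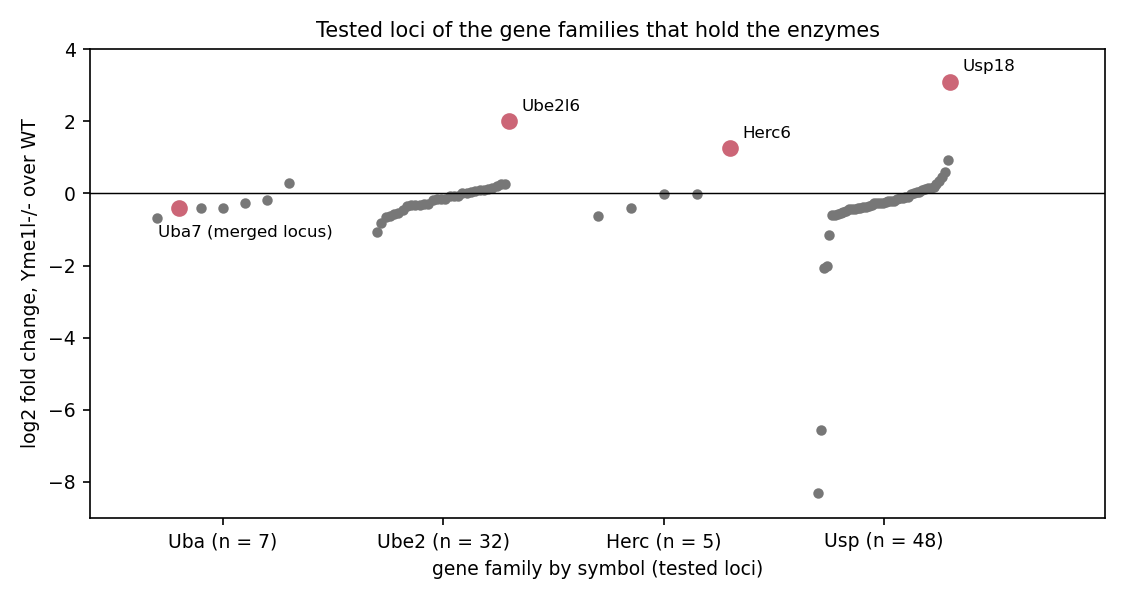
Log2 fold changes (Yme1l-/- over WT) of the tested loci in 4 gene families, each sorted by value, with the ISG15 member in colour. Ube2l6, Herc6 and Usp18 are the highest points of their families and the merged Uba7 locus lies among the other Uba loci. The lowest 2 Usp points, Usp51 and Usp13, had at most 1 fragment in a Yme1l-/- library, so their fitted values are not measures of size.

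Other modifiers of the ubiquitin type were taken for comparison. In the lists for ubiquitin (7 tested), SUMO (12), NEDD8 (6), UFM1 (7) and URM1 (2), no gene was called with at least 2-fold higher expression. Ubb, a polyubiquitin gene, was called higher at 0.59 ± 0.09 (SE), and the ubiquitin E1 genes Uba1 and Uba6 were called lower at -0.39 each. Ube2l3, the ubiquitin E2 closest to Ube2l6 by name, had a value of 0.11 ± 0.05 and was not called. It was called higher in 4 of 13 alternatives, among them the replicate number as a block (edgeR adjusted p = 0.0202). After removal of chromosome medians Ubb was at 0.24, Uba1 at -0.18 and Ube2l3 at 0.13, where Ube2l3 was called (edgeR adjusted p = 0.0319).

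In the SUMO list 2 genes were called higher and 7 lower, with the proteases Senp3 at 0.68 ± 0.06 and Senp6 at -0.75 ± 0.06 (SE) at the ends. In the NEDD8 list 1 was called higher and 4 were lower, and in the UFM1 list 2 were higher and 3 lower. With chromosome medians removed 1 gene was higher and 1 lower in the NEDD8 list, 2 were higher and 1 lower in the UFM1 list, and 1 was higher and 9 lower in the SUMO list, with Senp3 at 0.32 and Senp6 at -0.39. Medians ran from -0.23 (NEDD8) to -0.11 (UFM1) for the 4 larger lists and the median of the 2 URM1 genes, neither of them called, was 0.02, against 1.33 for the ISG15 genes. With chromosome medians removed the 4 larger lists had medians between -0.17 (SUMO) and 0.048 (UFM1), and the ISG15 genes one of 1.42. Ubd, which encodes the interferon-inducible modifier FAT10, had 0 fragments in WT and at most 3 in a Yme1l-/- library and was not tested.

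**Figure D4:**
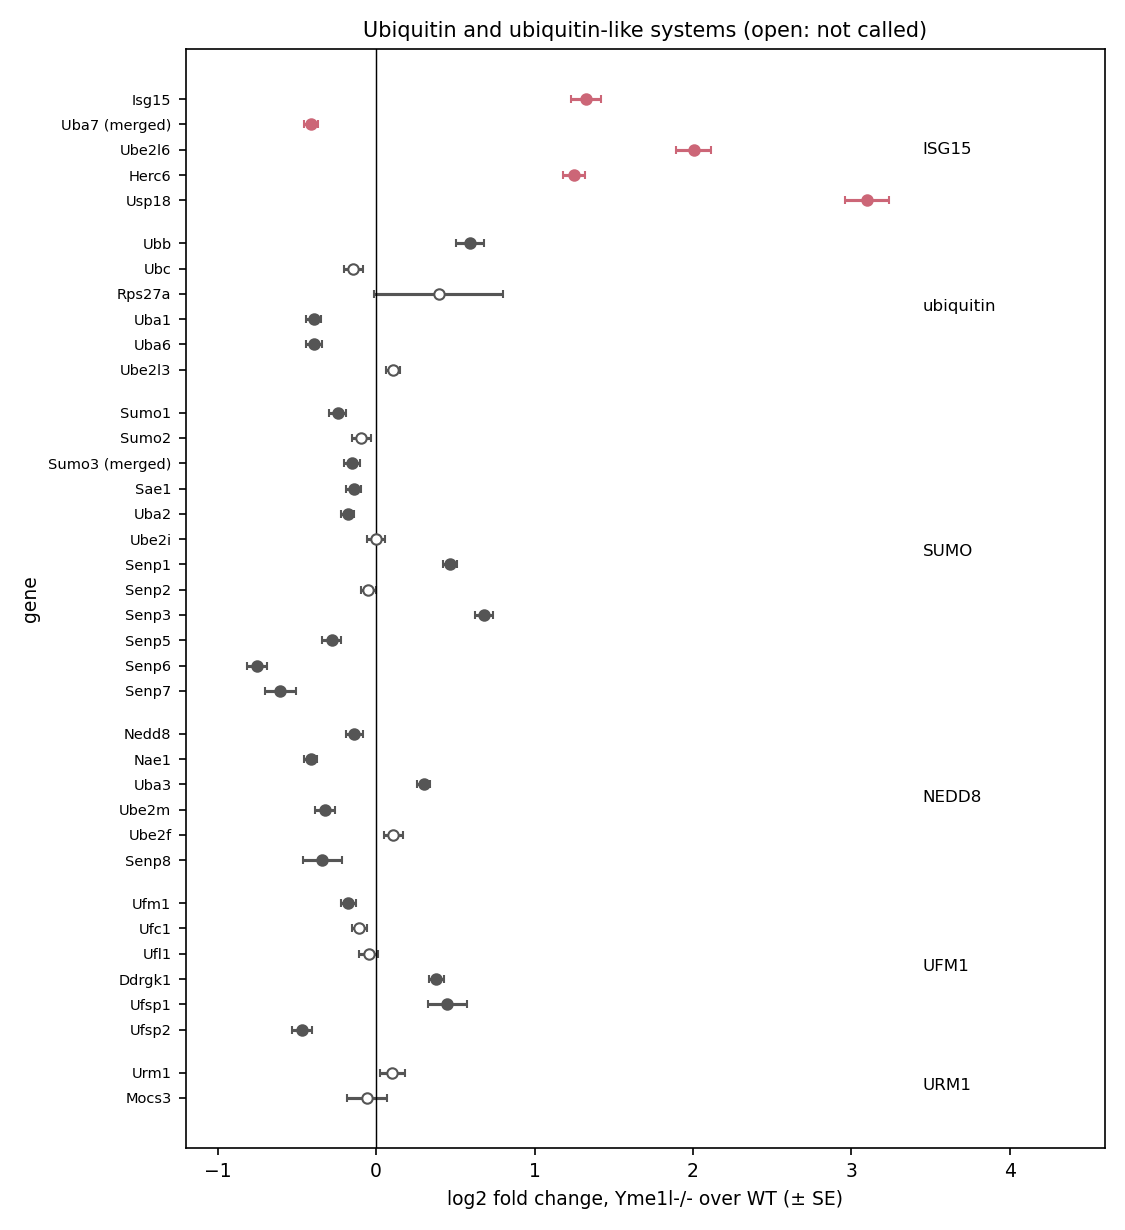
Log2 fold change with its SE for tested genes of the ISG15, ubiquitin, SUMO, NEDD8, UFM1 and URM1 systems, where filled points were called and open points were not. Isg15, Ube2l6, Herc6 and Usp18 lie above 1, where no gene of the other systems lies.

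Of 8 further genes reported to act on ISG15, 2 were called higher, 3 lower and 3 were not called, with a median log2 fold change of 0.04. With chromosome medians removed 4 were higher and 3 lower, with log2 fold changes of 0.49 for Trim25, 0.25 for Usp5, -0.31 for Arih1 and -0.36 for Usp14, while Usp2 at 0.69 and Usp21 at 0.26 were then called higher (edgeR adjusted p of 0.0025 and 0.0072). Trim25, an interferon-inducible ligase, rose from 62.3 ± 2.09 to 112 ± 10.1 CPM (SD, n = 3 each; log2 fold change 0.85 ± 0.07, SE). Usp5 rose by 0.59 ± 0.05, whereas the ligase gene Arih1 was at -0.67 ± 0.04 and the protease gene Usp14 at -0.57 ± 0.05, both called lower, as was Usp13. Usp2, Usp16 and Usp21 had values of 0.33 ± 0.16, -0.02 ± 0.04 and 0.10 ± 0.07.

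USP18 acts on the interferon receptor through IFNAR2 and STAT2. Stat2 was called higher, at 61.5 ± 6.41 CPM against 18.2 ± 1.05 CPM in WT (SD, n = 3 each; log2 fold change 1.76 ± 0.08, SE). The locus of Ifnar2, merged with Il10rb and Gm21970, was higher at 0.64 ± 0.05, and Ifnar1 was lower at -0.19 ± 0.05. Itgal, which encodes a subunit of LFA-1, the surface receptor of free ISG15, had at most 2 fragments in a library, and Itgb2, which encodes the other, had 3, 9 and 8 in WT and 25, 35 and 36 in Yme1l-/-. Skp2 was listed with at most 2 fragments in a library, and whether the authors' assembly placed its fragments in another locus was not tested.

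The receptor and ISGF3 list held 7 tested genes, of which 5 were called higher and 2 lower, with a median of 0.64. The locus of Irf9, merged with Rnf31, was higher at 0.82 ± 0.05 (SE). The kinase gene Jak1 was higher at 0.27 ± 0.04. Tyk2 was lower at -0.17 ± 0.06. It was called in 6 of 13 alternatives, and among these it was called higher, at 0.19, with chromosome medians removed. None of 11 interferon genes passed the filter, 9 of these were at 0 in every library, and their summed level was at most 0.0305 CPM in a library.

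Of 19 genes whose proteins are reported to be modified by ISG15, 10 were called higher, 6 lower and 3 were not called, with a median of 0.22, and 10 were higher and 3 lower with chromosome medians removed. The share called higher, set against the 33.6% of all loci, is a description, since several of these genes are themselves interferon-stimulated. Ddx58, the gene of the RNA sensor RIG-I, was at 103.9 ± 11.1 CPM against 21.01 ± 1.35 CPM in WT (SD, n = 3 each; log2 fold change 2.31 ± 0.08, SE). Eif2ak2, which encodes the kinase PKR, was at 1.18 ± 0.08, Tmem173, which encodes STING, at 0.92 ± 0.06, and Trp53 at 0.74 ± 0.04 (0.38 with chromosome medians removed), all higher. Mx1 was called higher but was low, with 7, 17 and 3 fragments in WT and 25, 43 and 60 in Yme1l-/-. Among those called lower was Irf3, at -0.23 ± 0.05. Ifit1 was at 0.0018 ± 0.08, its mean being 27.7 ± 2.33 CPM in WT against 27.6 ± 2.43 CPM in Yme1l-/-.

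The neighbourhood of each member was examined through the 5 nearest tested loci on each side. Next to Isg15, AW011738, 2.49 kb away, was called higher at 1.12 ± 0.21 (SE), and Agrn, 1.94 kb away on the other side, was called lower at -0.34 ± 0.05. Isg15 had only 8 such neighbours because it lies near the end of chromosome 4, of which 2 were called higher and 2 lower.

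Ube2l6 had 4 neighbours called higher and 2 lower. Slc43a1, an amino acid transporter gene 28.5 kb away, had 23, 9 and 19 fragments in WT and 71, 97 and 104 in Yme1l-/-. Slc43a3, 126 kb away, rose from 3.88 to 21.8 CPM, a log2 fold change of 2.49 ± 0.12 (SE). Timm10 lies between them and Ube2l6, 16.7 kb away, and had a value of 0.02 ± 0.08. Rtn4rl2, 61.6 kb away, had at most 3 fragments in a WT library and at least 22 in each Yme1l-/- library.

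Both members on chromosome 6 lie on a chromosome whose 697 tested loci had a median log2 fold change of 0.34. With chromosome medians removed, Herc6 was at 0.91 and Usp18 at 2.76, and both stayed called. Ppm1k, which has the same deposited interval as Herc6, was higher at 1.33 ± 0.13 (SE). Pyurf, 20.1 kb away, was higher at 0.99 ± 0.07 (0.65 with chromosome medians removed). Of the 10 neighbours of Herc6, 6 were called higher and 2 lower, but 2 higher (Ppm1k and Pyurf) and 5 lower with chromosome medians removed. For Usp18 the numbers were 4 higher and 2 lower, and 1 higher and 4 lower with these medians removed. Its nearest tested neighbour, Tuba8, 19.1 kb away, was lower at -2.88 ± 0.36, at 1.31 CPM in WT against 0.172 CPM in Yme1l-/-. Some of these loci are distant. The 5 tested loci downstream of Usp18 lie 1036 to 1305 kb away, and the 5 upstream of Herc6 lie 553 to 772 kb away.

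None of the 10 neighbours of the merged Uba7 locus was called higher and 6 were called lower, with a median of -0.19, whereas 5 were called higher and 3 lower with chromosome medians removed. Ube2l6, on a chromosome with a median of -0.02, and Isg15, on a chromosome with a median of -0.10, changed little when chromosome medians were removed, and Isg15 was then at 1.42.

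**Figure D5:**
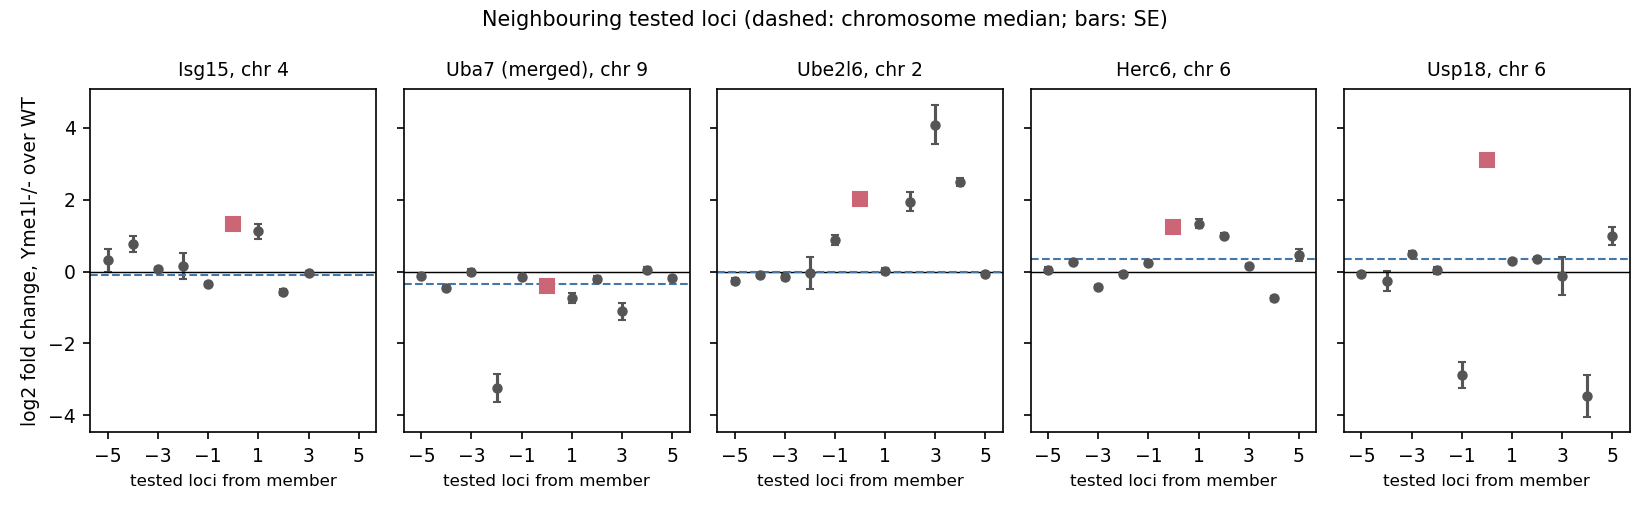
Log2 fold change with its SE of the 5 nearest tested loci on each side of a member (square), ordered along the chromosome, with the chromosome's median dashed. Usp18 stands above all its neighbours, Ube2l6 lies below 2 of its neighbours (Slc43a3 and Rtn4rl2, the latter with at most 3 fragments in a WT library), and the merged Uba7 locus lies near the median of chromosome 9.

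For each member the 3 genes with the most similar profile were taken, by the root mean square (RMS) difference of log2 CPM over the 6 libraries, each profile centred on its mean. With 3 libraries of each genotype such a likeness rests mainly on the fold change. For Isg15 these were Nxph4, Fuz and B2m, the last encoding the light chain of MHC class I, with RMS differences of 0.076, 0.081 and 0.087. For Ube2l6 these were Cd59a, Gstm2 and Tspyl4, at 0.047, 0.054 and 0.062. For Herc6 these were Cntnap1, Helz2 and Tbc1d22a, at 0.040, 0.044 and 0.045, and for Usp18 Apbb1ip, Tmem176a and Hacd4, at 0.097, 0.104 and 0.109. The merged Uba7 locus was closest to Ss18, Cul4a and Galnt1, at 0.011, 0.014 and 0.014.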

How the data were processed

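Poly(A)-selected RNA of 3 WT and 3 Yme1l-/- MEF cultures was sequenced from stranded libraries. The authors mapped read pairs to mm10 (GRCm38) with HISAT2 2.0.4, assembled transcripts with StringTie 1.3.3 and compared genotypes with Cuffdiff 2.2.1. The authors deposited raw counts of fragments per assembled locus, where overlapping genes can be merged (635 loci, 387 of those tested). The authors' table of the comparison gave coordinates and FPKM values as 1 combined value per genotype. Its fold and p-value columns hold the authors' own comparison and were not used.

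Differences were tested with edgeR 4.0.16 (R 4.3.3). Loci were kept with filterByExpr (minimum count 10), scaled with TMM factors and compared with the two-sided quasi-likelihood test (glmQLFit, robust). P-values were Benjamini-Hochberg adjusted over all 13867 loci, and an adjusted p under 0.05 was a call. The SE is the log2 fold change over the root of F. CPM are counts per 1e6 of the TMM-scaled library size, and ratios and profiles used log2 CPM with a prior count of 2. Depth of 33180867 to 49351107 fragments limits the precision of low counts, and since PCR copies were not identified, errors from counting alone would be too small. Exonic bases were taken from GENCODE M21, near copies from BLAST 2.17.0, and promoters from RefSeq. The members, gene lists, motifs and tests were chosen with earlier results of these data known. Named genes were the members, genes of these lists, the 3 highest and 3 lowest calls of each family, the 5 tested loci on each side of a member and the 3 closest profiles per member. Alternatives were RLE and upper-quartile scaling, DESeq2 1.42.0, 2 other filters, another prior count, the replicate number as a block, each culture left out, and chromosome medians removed. For neighbouring loci and similar profiles all of these but the low filter were chosen after seeing the data. The fit was tested on simulated data. Values of some single list members are left out of the text and figures but enter the counts and medians of their lists.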

Additional observations from a re-analysis of the deposited data

How the results depend on the processing

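Isg15, Ube2l6, Herc6 and Usp18 were called higher in all 13 alternatives run for each, and with each culture left out in turn their log2 fold changes were 1.24 to 1.44, 1.93 to 2.09, 1.21 to 1.303 and 2.97 to 3.29. The merged Uba7 locus was called lower in 12 of 13, at -0.43 to -0.39 with a culture left out. With chromosome medians removed its value was -0.049 (edgeR adjusted p = 0.345), so the number of members called lower was 0, because that setting subtracts the median of chromosome 9. The same setting also reversed 11 other loci that are listed here, and further ones among the neighbours of the members. Log2 fold changes were then 0.19 for Tyk2, -0.14 for Becn1, 0.12 for Mb21d1, -0.13 for Senp1, 0.031 for Nedd8 and -0.042 for Uba3. They were 0.018 for Senp8, 0.20 for Traip, -0.26 for Usp15, -0.078 for Ube2h and -0.10 for Ube2o. Of the neighbours, Apeh went from -0.17 to 0.19 and Lancl2 from 0.16 to -0.19, both called in either setting. Avl9, Nt5c3 and M6pr went from 0.28, 0.24 and 0.28 to -0.065, -0.097 and -0.062, where they were not called. Of 94 named loci called besides the members, 68 were called in the same direction in every alternative that tested them. The shift of Herc6 over Isg15 ran from -0.18 to 0.034 with a culture left out, the latter without WT replicate 3, and the cause was not tested. Loci called numbered 8847 to 9406 with a culture left out. The replicate numbers did not pair the cultures (correlations of deviations 0.144, -0.094 and 0.048). With the replicate block the log2 fold changes of Isg15 and Usp18 were 1.33 and 3.10. The block changed no call of a member, and Ube2d2a was not called with it (edgeR adjusted p = 0.0847).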
